A study of Mus musculus with 6 samples.

Results

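The S100 family genes were followed by RNAseq in tumors of the mammary gland from NeuT/ATTAC mice given IgG or anti-PD-1 monoclonal antibody (mAb). The members were the 10 genes S100a1, S100a4, S100a6, S100a8, S100a9, S100a10, S100a11, S100a13, S100a14 and S100a16, taken by Ensembl gene ID and GRCm38 symbol from the 54532 gene IDs measured in each tumor. There were 3 IgG-treated and 3 anti-PD-1-treated tumors, numbered as replicates 1 to 3 in each group. Both groups carried the same alleles: MMTV-NeuT, in which the MMTV promoter expresses Erbb2 in mammary epithelium, and FAT-ATTAC, a caspase transgene driven by the adipocyte Fabp4 promoter, with which AP20187 kills adipocytes and induces fibrosis (FAT-ATTAC came from C57BL/6 and was moved into FVB before the cross with MMTV-NeuT). Both groups were dosed from 6 weeks of age with 0.4 mg/kg AP20187, which the sample labels give as biweekly and the study's methods as triweekly, and from 8 weeks with 100 μg of mAb or isotype-matched IgG per injection. Thus, the controls were fibrotic NeuT/ATTAC tumors on IgG, and no tumor without AP20187 was compared. The labels do not say how the replicates were taken beyond their numbers, and a legend of the study describes the RNA of a group as pooled, so the p-values here measure the spread between these libraries.

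S100 proteins are small calcium-binding proteins with a pair of EF-hand motifs that mostly act as dimers. Upon binding calcium they expose a surface that engages target proteins inside the cell, such as annexins and non-muscle myosin, and several are also released and bind receptors such as Ager (RAGE) and Tlr4. S100a8 and S100a9 pair as calprotectin, which is abundant in neutrophils and monocytes. S100a14 is found mainly in epithelium, S100a16 is expressed more broadly and is grouped with it here, S100a4 and S100a6 are high in fibroblasts and other motile cells, S100a10, S100a11 and S100a13 are widely expressed, and S100a1 is best known in heart and skeletal muscle.

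All 10 members lie on chromosome 3 of GRCm38 within the stretch from 90511034 to 93564643 and are annotated as protein-coding. This stretch also holds 5 other S100 genes, of which 3 were above 0 in any tumor, and 106 annotated genes outside the family, many of them of the epidermal barrier. Of those 106 genes, 18 were above 0 in any tumor and 2 passed the filter on low values. The 3 highest of them by mean level were Gm4202, Sprr1a and Gm9774, and Gm4202 lay between 0.91 and 3.04 FPKM. The RefSeq promoter table (GRCm38.p6) held 8 of the 10 members, as windows of 300 bases with 250 before and 50 from the annotated start. The windows of S100a8, S100a9 and S100a11 are shown because S100a8 and S100a9 encode the subunits of one complex yet differed in pattern across tumors, and S100a11 had the only groups that did not overlap. Capitals mark matches to 4 motifs searched on both strands, namely TATAAA (the TATA box), TGANTCA (the AP-1 element), CCAAT (the CCAAT box) and AGGAAGT (an ETS site of PU.1 type).
S100a8, chr3:90668821-90669120, plus strand: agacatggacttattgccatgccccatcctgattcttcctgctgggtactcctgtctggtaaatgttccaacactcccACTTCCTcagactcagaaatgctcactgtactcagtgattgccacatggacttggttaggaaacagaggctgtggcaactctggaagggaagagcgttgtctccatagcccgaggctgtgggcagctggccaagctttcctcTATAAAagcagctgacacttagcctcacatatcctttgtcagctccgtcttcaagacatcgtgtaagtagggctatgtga
S100a9, chr3:90695672-90695971, minus strand: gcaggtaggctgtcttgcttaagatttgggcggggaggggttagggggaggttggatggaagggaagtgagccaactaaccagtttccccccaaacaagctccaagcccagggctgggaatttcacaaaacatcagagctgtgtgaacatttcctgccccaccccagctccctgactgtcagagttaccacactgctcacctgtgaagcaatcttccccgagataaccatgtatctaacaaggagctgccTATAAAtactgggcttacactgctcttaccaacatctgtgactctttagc
S100a11, chr3:93520246-93520545, plus strand: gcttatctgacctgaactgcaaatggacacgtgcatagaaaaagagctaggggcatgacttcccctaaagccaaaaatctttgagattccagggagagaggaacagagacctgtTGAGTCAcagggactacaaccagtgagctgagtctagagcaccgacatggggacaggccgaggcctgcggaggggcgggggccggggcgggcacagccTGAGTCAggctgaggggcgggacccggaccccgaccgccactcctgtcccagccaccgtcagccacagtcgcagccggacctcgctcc
Positions count from the start in the promoter table, which for S100a8 and S100a11 lies inside the gene coordinates given below. S100a8 had TATAAA beginning 30 bases before this start and AGGAAGT on the opposite strand 172 bases before it. S100a9 had TATAAA at the annotated start itself. S100a11 had no TATAAA and held TGAGTCA at 136 and at 38 bases before its start, a motif that reads as TGANTCA on either strand. Of the 32851 promoters of this length in the table, 13.6% held TATAAA, 7.81% TGANTCA, 37.4% CCAAT and 9.35% AGGAAGT. These matches describe the letters only.

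The levels were FPKM (fragments scaled by the exon length of the gene and by the size of the library), so that members can be compared with each other. Where 3 values are given for a group, they stand in the order of replicates 1, 2 and 3. The 9 detected members spanned a wide range. S100a11, with a mean of 553 FPKM over the 6 tumors, was the highest, followed by S100a1 (303), S100a6 (118), S100a16 (108), S100a10 (89.3) and S100a13 (46.4). Far below lay S100a8 (6.22), S100a14 (3.02) and S100a9 (2.74), and S100a4 was listed at 0 in every tumor. S100a11 exceeded S100a1, S100a1 exceeded S100a6, S100a10 exceeded S100a13 and S100a13 exceeded S100a8 in 6 of 6 tumors each. The other neighbors changed places. S100a6 exceeded S100a16, and S100a16 exceeded S100a10, in 4 of 6 tumors, whereas S100a8 against S100a14, and S100a14 against S100a9, went each way in 3 tumors. Calprotectin transcripts, S100a8 plus S100a9, made up between 0.245% and 1.68% of the summed FPKM of the members.

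**Figure D1:**
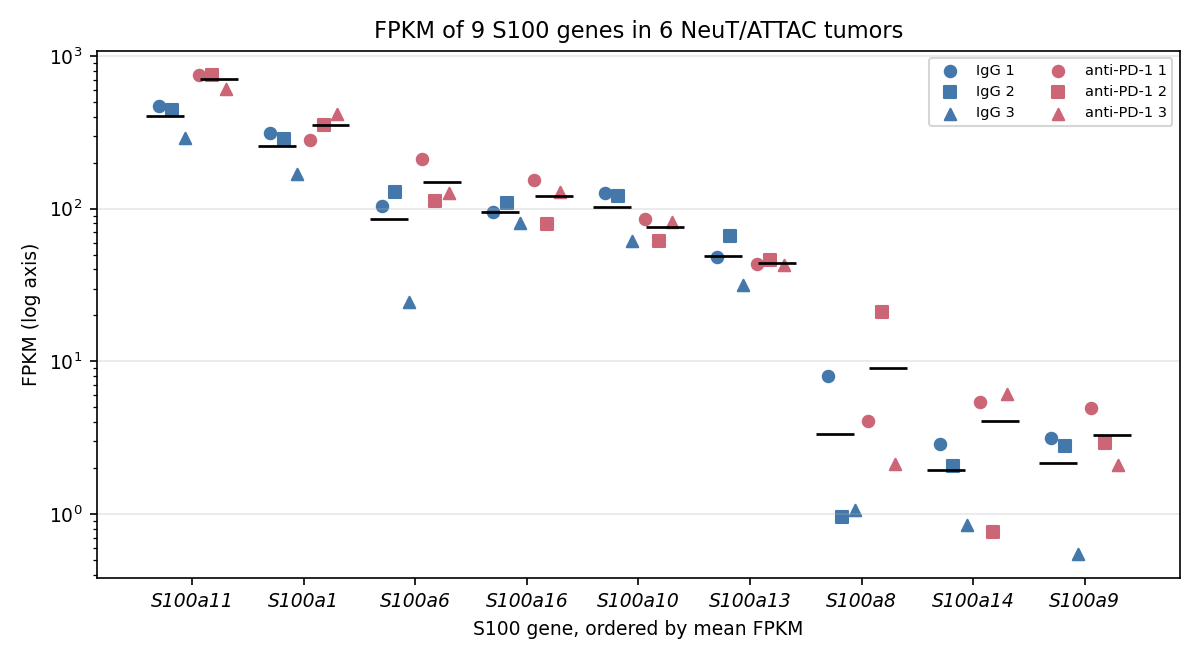
FPKM on a log axis of the 9 detected S100 genes in each tumor, ordered by mean FPKM, with IgG tumors in blue, anti-PD-1 tumors in red, symbols for replicates 1 to 3 and black bars for group means. S100a11 is the only gene whose groups do not overlap, IgG replicate 3 is lowest or second lowest in all 9 genes, and S100a4, listed at 0, is not drawn.

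One library was low across the family, and not in the family alone. IgG replicate 3 had the lowest value in 5 of the 9 detected members and the second lowest in the other 4. Added up, the FPKM of the 10 members came to 1169, 1163 and 659 under IgG and 1542, 1426 and 1417 under anti-PD-1. Hence the sum was higher in every anti-PD-1 tumor than in any IgG tumor, and IgG replicate 3 was the lowest by far. The separation of the groups came with S100a11, since without it the sums were 699.8, 717 and 369 under IgG and 788, 676 and 808.5 under anti-PD-1, and the groups overlapped. From its FPKM steps 22056177 reads could be recovered, the second lowest of the 6 libraries, which ran from 21075641 to 23852764, and the part of depth in its low values was not tested. The tumors were epithelial by the 11 luminal markers, whose summed FPKM was 2387 to 3275 in IgG and 3330 to 4193 in anti-PD-1 tumors, with Krt18 at 685 to 1385 and Epcam at 690 to 1150 FPKM in every tumor. IgG replicate 3 also had the lowest summed FPKM of the luminal markers (2387), of the macrophage and monocyte markers (395), of the neutrophil markers (31.3) and of the S100 receptors and partners (884). It had the highest sum of the Schwann and nerve markers (309.6) and the second highest of the endothelial (19.5), adipocyte (8.52), keratinocyte (9.07) and T cell (3.0) markers.

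None of the 9 members tested had an adjusted p under 0.05 in the comparison of anti-PD-1 with IgG tumors, and neither did any of the 15069 genes tested (0.0% called, smallest limma adjusted p = 0.0809). The adjusted p of the members ran from 0.347 to 0.926 (limma, Benjamini-Hochberg over all genes tested). Without adjustment, 12.3% of all genes had a p under 0.05. With a 1.5-fold difference also required, 1 of 9 members was higher in anti-PD-1 tumors and 0 lower, against 3.9% and 4.53% of all genes. That member was S100a11. It was also the only 1 of 9 (11.1%) whose anti-PD-1 tumors all lay above the IgG tumors, as did 9.3% of all genes, and 0 of 9 lay entirely below, as did 8.75% of all genes. The share of 11.1% is near that of all genes. The mean was higher in anti-PD-1 tumors for 7 members and lower for 2, while 50.8% of all genes were higher. The median log2 fold change of the members was 0.53, compared with 0.0072 for all genes tested, and it was 0.21 when IgG replicate 3 was left out. These are bulk tumors, in which fewer cells of a type and less RNA per cell cannot be told apart.

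**Figure D2:**
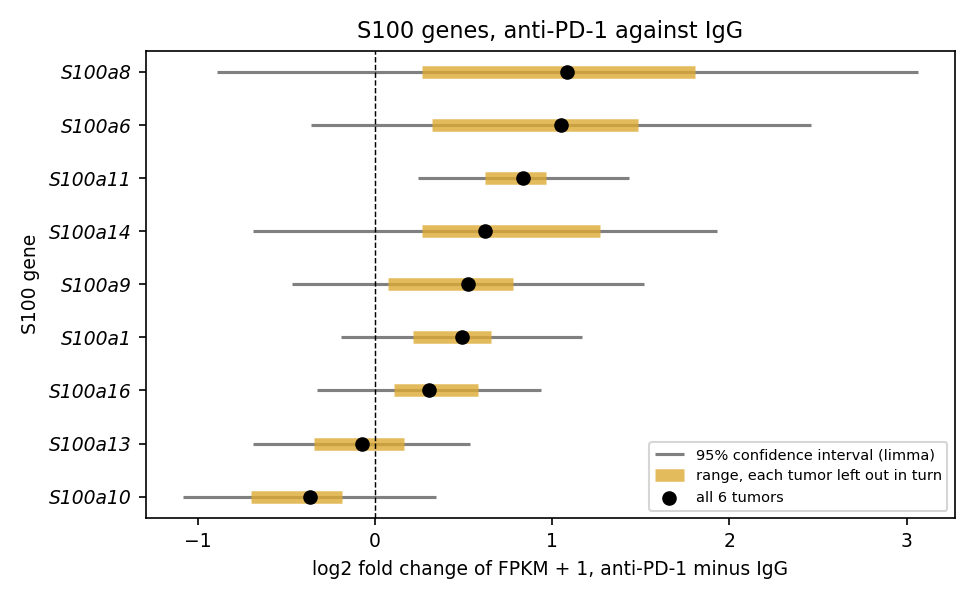
Log2 fold change of FPKM + 1, anti-PD-1 minus IgG, for the 9 members tested, with black points for all 6 tumors, grey lines for limma's 95% confidence interval and yellow bars for the range when each tumor is left out in turn. The interval of S100a11 (0.24 to 1.43) is the only one clear of 0, and that of S100a8 (-0.89 to 3.06) is the widest.

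Of the myeloid members, S100a8 (ENSMUSG00000056054, 90668978 to 90670035, plus strand) measured 8.05, 0.961 and 1.06 FPKM under IgG and 4.05, 21.1 and 2.12 FPKM under anti-PD-1. Anti-PD-1 replicate 2 and IgG replicate 1 were high, the other tumors were low, and the groups overlapped. These values rest on 123, 16 and 18 reads under IgG and on 72, 355 and 35 under anti-PD-1. The mean was 3.36 ± 4.07 FPKM (SD, n = 3) in IgG and 9.09 ± 10.4 FPKM (SD, n = 3) in anti-PD-1 tumors. The log2 fold change was 1.09 (standard error 0.84, limma adjusted p = 0.621, exact permutation test p = 0.5). It was 0.27 without anti-PD-1 replicate 2 and 1.81 (limma adjusted p = 0.296) without IgG replicate 1, the tumor that made the groups overlap.

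S100a9 (ENSMUSG00000056071, 90692632 to 90695721, minus strand), the partner of S100a8, measured 3.13, 2.79 and 0.549 FPKM under IgG and 4.94, 2.92 and 2.10 FPKM under anti-PD-1. It was low in IgG replicate 3 alone, with 7 reads against 26 to 66 in the other tumors, and the groups overlapped. Its mean was 2.16 ± 1.40 FPKM (SD, n = 3) in IgG and 3.32 ± 1.46 FPKM (SD, n = 3) in anti-PD-1 tumors. The log2 fold change was 0.53 (standard error 0.42, limma adjusted p = 0.628, exact permutation test p = 0.5), and it was 0.08 without IgG replicate 3.

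The partners did not share a pattern across tumors. The FPKM ratio of S100a8 to S100a9 was 2.57 in IgG replicate 1 (95% exact binomial interval 1.76 to 3.84), 0.344 in IgG replicate 2 (0.178 to 0.638) and 1.93 in IgG replicate 3 (0.771 to 5.48). Under anti-PD-1 it was 0.821 (0.579 to 1.16), 7.22 (5.14 to 10.4) and 1.01 (0.592 to 1.75). S100a8 was thus above S100a9 in IgG replicate 1 and anti-PD-1 replicate 2 and below it in IgG replicate 2, beyond counting error, which is all that these intervals cover. In the other 3 tumors the interval included equal levels. The SD over 6 tumors of the difference in log2(FPKM + 1) between the partners was 1.20, compared with 0.31 for S100a10 and S100a13, the most alike pair of members, and 1.75 for S100a8 and S100a14, the least alike. S100a9 differed less from the widely expressed S100a11 (SD 0.38) than from S100a8.

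**Figure D3:**
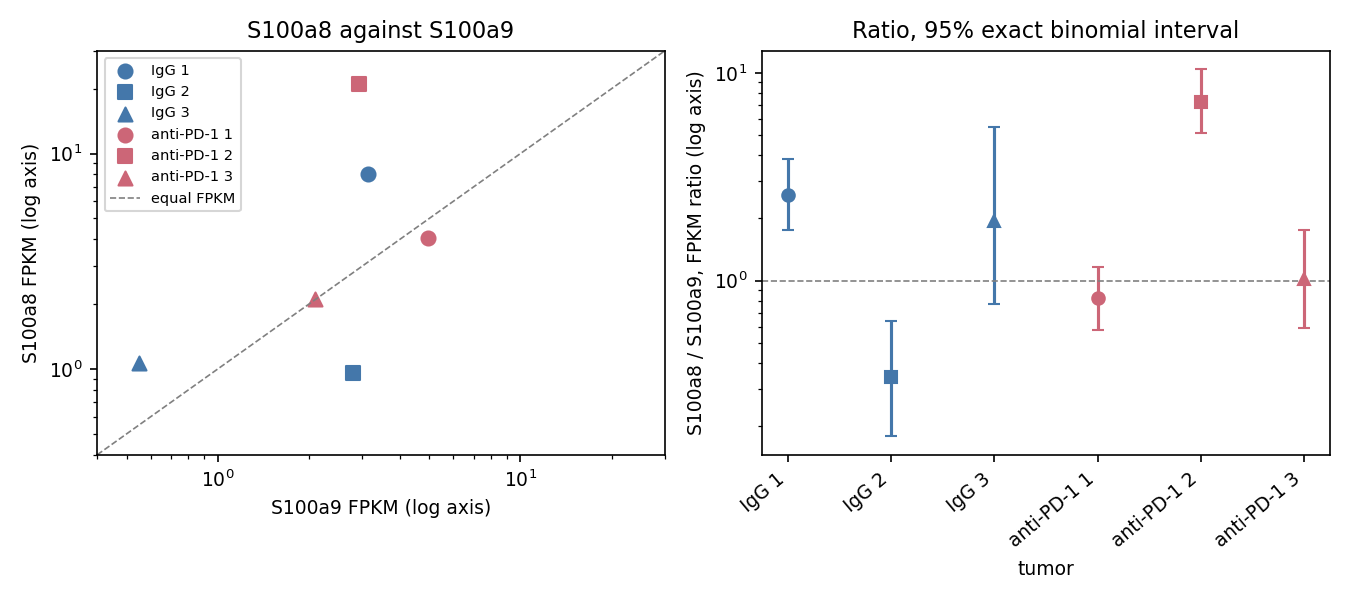
Left, FPKM of S100a8 against S100a9 in the 6 tumors (log axes, dashed line for equal levels). Right, the FPKM ratio of S100a8 to S100a9 per tumor on a log axis with 95% exact binomial intervals, which runs from 0.344 in IgG replicate 2 to 7.22 in anti-PD-1 replicate 2.

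Among the genes that were no members, those most alike to S100a8 by this SD were Gm27861 (0.41), Igsf8 (0.44), Saa1 (0.45), Mir7231 (0.46) and Gm25960 (0.48), where the SD of S100a8 itself was 1.36. Saa1, an acute-phase serum amyloid, measured 5.35, 0.151 and 0.0992 FPKM under IgG and 1.15, 5.52 and 0.951 FPKM under anti-PD-1. Igsf8, a membrane protein of the immunoglobulin superfamily, had 143, 24.4 and 25.4 FPKM in the IgG and 71.1, 149 and 41.6 FPKM in the anti-PD-1 tumors. Both were thus high in the same 2 tumors as S100a8. Those most alike to S100a9 were other genes, namely Ecm1 (0.14), Gsto1 (0.17), Il1b (0.20), Pdlim7 (0.20) and Cyba (0.22), where the SD of S100a9 itself was 0.65. Il1b, the inflammatory cytokine interleukin-1β, had 4.00, 3.95 and 1.55 FPKM in the IgG and 7.17, 3.35 and 2.69 FPKM in the anti-PD-1 tumors. Cyba, the p22phox subunit of the phagocyte NADPH oxidase, had 52.2, 37.9 and 16.05 FPKM in the IgG and 63.5, 32.2 and 37.3 FPKM in the anti-PD-1 tumors. As for S100a9, both were highest in anti-PD-1 replicate 1 and lowest in IgG replicate 3. This likeness is a description over 6 tumors, chosen as the closest of all genes tested.

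**Figure D4:**
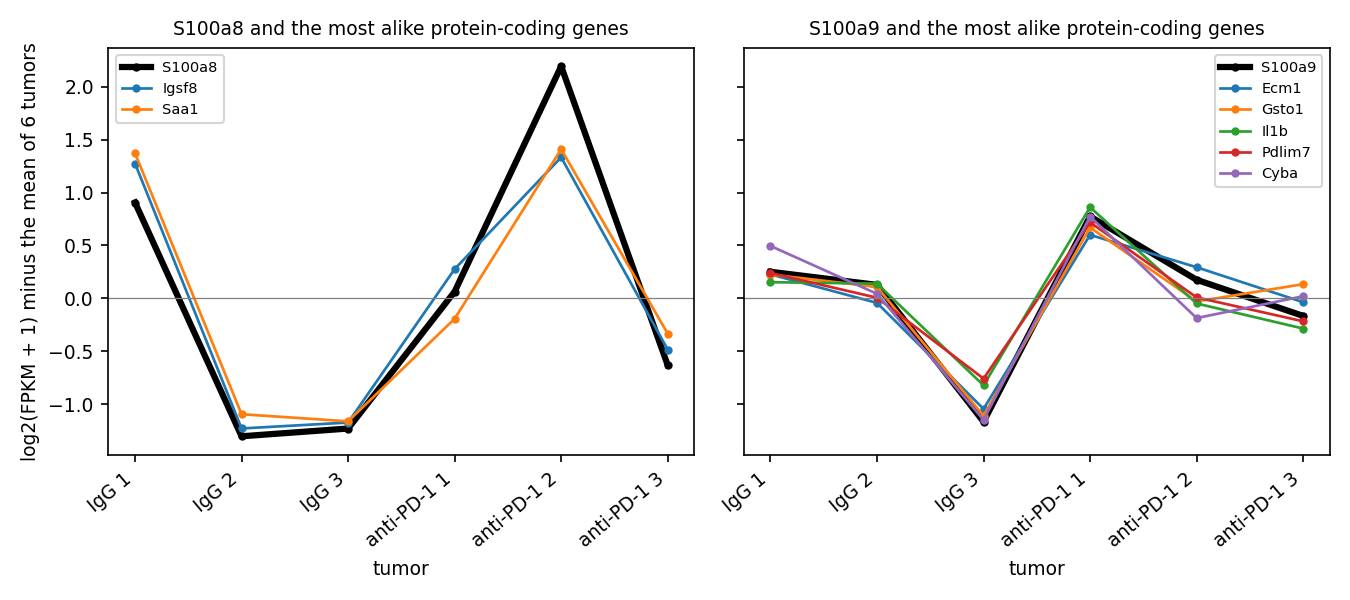
Log2(FPKM + 1) minus the mean over the 6 tumors for S100a8 (left, black) and S100a9 (right, black) with the protein-coding genes among the 5 most alike to each. S100a8, Igsf8 and Saa1 peak in IgG replicate 1 and anti-PD-1 replicate 2, and S100a9, Ecm1, Gsto1, Il1b, Pdlim7 and Cyba dip in IgG replicate 3; lines join tumors to aid the eye only.

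Of the 22 neutrophil markers, Mrgpra2b was at 0 throughout, 15 others did not pass the filter on low values and 6 did. Ly6g was at most 0.306, Camp at most 0.258, Cxcr2 at most 0.346, Mpo at most 0.0843 and Elane at most 0.0462 FPKM. Other markers of the list were higher, with Csf3r at 1.13 to 1.88 FPKM in every tumor and Padi4, Clec4d and Ifitm6 at up to 1.38, 2.29 and 3.12 FPKM. In anti-PD-1 replicate 2, where S100a8 was highest, Ly6g was at 0.306 and Camp at 0 FPKM. The summed FPKM of the list was 31.3 to 965 in IgG and 97.7 to 188 in anti-PD-1 tumors, most of it from Ltf and Cd177, and 1 marker was higher at the unadjusted thresholds. Ltf, which encodes lactoferrin and is also made by mammary epithelium, reached 953 FPKM in IgG replicate 2, where S100a8 was lowest. Cd177 had 36.7, 8.13 and 8.44 FPKM in the IgG and 108, 67.1 and 73.2 FPKM in the anti-PD-1 tumors (log2 fold change 2.47, limma adjusted p = 0.344), without overlap. Of all genes tested, 9.3% were likewise higher in every anti-PD-1 tumor. The part of neutrophils in the level of Cd177 was not tested.

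The 16 macrophage and monocyte markers summed to 395 to 620 FPKM in IgG and 427 to 831 FPKM in anti-PD-1 tumors, with 1 of 14 tested (Cd68, log2 fold change 0.76) higher at the unadjusted thresholds and 0 lower. The sum was 427 FPKM in anti-PD-1 replicate 2, the tumor highest in S100a8, and 777 FPKM in anti-PD-1 replicate 1, the tumor highest in S100a9. It was highest, at 831 FPKM, in anti-PD-1 replicate 3, where 9 of the 16 markers were highest and S100a9 was at 2.10 FPKM. Most of the sum came from Lyz2 and the C1q genes. Of the 16 markers, 3 were highest in anti-PD-1 replicate 2 (Cd68, Chil3 and Ly6c2) and 6 were lowest there (Lyz2, Adgre1, Csf1r, Mrc1, Cd163 and Fcgr1). The 15 keratinocyte markers summed to 5.63 to 10.9 FPKM in IgG and 5.49 to 8.05 FPKM in anti-PD-1 tumors, with Krt16, Sprr1b, Sprr3 and Ivl at 0 and 1 of 6 tested lower at the unadjusted thresholds. The part of these cells in the levels of S100a8 and S100a9 was not tested.

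S100a14 and S100a16, grouped here as epithelial, differed in level, while the same 2 tumors were highest and the same tumor lowest in both. S100a14 (ENSMUSG00000042306, 90526856 to 90528837, plus strand) measured 2.89, 2.07 and 0.854 FPKM under IgG and 5.38, 0.764 and 6.14 FPKM under anti-PD-1. Anti-PD-1 replicates 1 and 3 were above every IgG tumor, and anti-PD-1 replicate 2 was below every IgG tumor. For S100a14 the log2 fold change was 0.62 (standard error 0.56, limma adjusted p = 0.668, exact permutation test p = 0.5). It was 1.27 without anti-PD-1 replicate 2, the tumor that made the groups overlap. Leaving out anti-PD-1 replicate 3 gave 0.26, IgG replicate 3 gave 0.32 and anti-PD-1 replicate 1 gave 0.34. The genes most alike to S100a14 were Dbn1 (SD 0.22), Gm13092 (0.25), Fth1 (0.27), Sphk1 (0.30) and Gm5874 (0.31), where the SD of S100a14 itself was 0.86. Fth1, the heavy chain of the iron store ferritin, had 1543, 1336 and 921 FPKM in the IgG and 2027, 829 and 2317 FPKM in the anti-PD-1 tumors, and was likewise lowest in anti-PD-1 replicate 2.

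S100a16 (ENSMUSG00000074457, 90537254 to 90543151, plus strand) measured 95.8, 109 and 80.1 FPKM under IgG and 153, 79.9 and 129 FPKM under anti-PD-1. As with S100a14, anti-PD-1 replicates 1 and 3 were the highest tumors and anti-PD-1 replicate 2 the lowest. The mean was 94.9 ± 14.5 FPKM (SD, n = 3) in IgG and 121 ± 37.3 FPKM (SD, n = 3) in anti-PD-1 tumors. The difference was 0.31 on the log2 scale (standard error 0.27, limma adjusted p = 0.661, exact permutation test p = 0.4). Leaving out anti-PD-1 replicate 1 gave 0.11, IgG replicate 3 gave 0.19 and anti-PD-1 replicate 2 gave 0.58. The 11 luminal markers summed to 3275, 2956.5 and 2387 FPKM in the IgG and to 3330, 3448 and 4193 FPKM in the anti-PD-1 tumors. This sum was thus not lowest in the tumor lowest in S100a14 and S100a16. The part of epithelial content in the levels of both genes was not tested.

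Of the stromal members, S100a6 (calcyclin, ENSMUSG00000001025, 90612882 to 90624181, plus strand) measured 104, 128 and 24.6 FPKM under IgG and 210.2, 112 and 127 FPKM under anti-PD-1. Anti-PD-1 replicate 1 was high, IgG replicate 3 was low, and the other tumors overlapped. The mean was 85.5 ± 54.1 FPKM (SD, n = 3) in IgG and 149.8 ± 52.9 FPKM (SD, n = 3) in anti-PD-1 tumors. For S100a6 the log2 fold change was 1.05 (standard error 0.60, limma adjusted p = 0.502, exact permutation test p = 0.3), and it was 0.32 without IgG replicate 3. The 11 fibroblast markers, led by Sparc and Col1a1, summed to 412, 158 and 194 FPKM in the IgG and to 560.3, 172 and 376 FPKM in the anti-PD-1 tumors, with 0 of 11 past the unadjusted thresholds. The sum was highest in anti-PD-1 replicate 1, as was S100a6. It was lowest in IgG replicate 2, where S100a6 was at 128 FPKM. In turn, S100a6 was lowest in IgG replicate 3, where the sum was 194 FPKM. The part of fibroblasts in the level of S100a6 was not tested.

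S100a4 (ENSMUSG00000001020, 90603771 to 90606045, plus strand), also known as fibroblast-specific protein, was listed at 0 FPKM in all 6 tumors. By the annotation, 302 of its 584 exon bases (51.7%) are shared on the same strand with Gm42674 (90601904 to 90605885), a gene whose exon bases all lie in S100a3 or S100a4 and which was also listed at 0. The shared stretches run from 90604997 to 90605152 and from 90605740 to 90605885. No other member shares an exon base with another gene on either strand. Of all protein-coding genes with at least 50% of their exon bases shared on the same strand, 203 of 408 (49.8%) were listed at 0 in all tumors, compared with 150 of 1333 (11.3%) of those that share fewer and 4334 of 20254 (21.4%) of those that share none. The share at 0 thus did not increase steadily with sharing. Genes used by all cells were among those at 0, such as Nme3 (87.1% shared), Mrpl53 (88.0%) and Sco2 (68.3%), which were picked after their values were seen. With 0 reads recovered for S100a4, none were counted from its unshared exon bases either. Whether the 0 of S100a4 is a level cannot be told here, and the part of the shared exons in it was not tested.

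**Figure D5:**
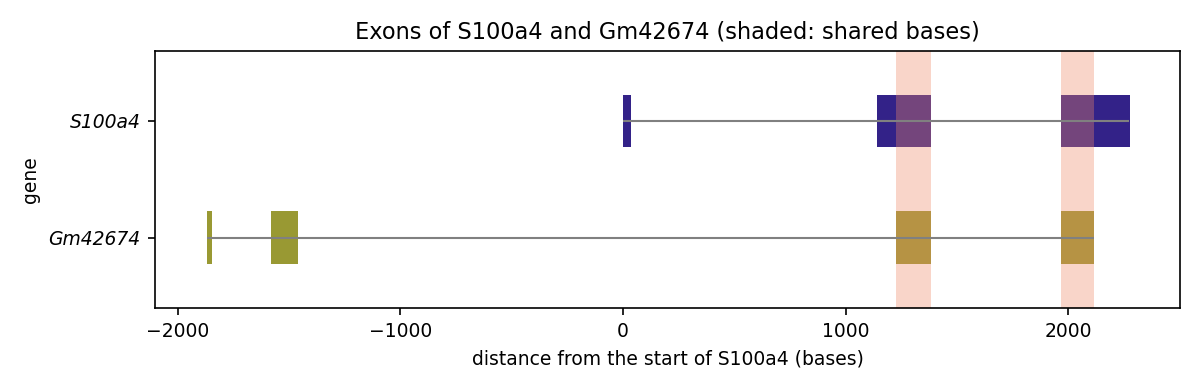
Exons (boxes) of S100a4 and Gm42674 by distance in bases from the start of S100a4, with shared bases shaded. The shaded stretches, of 156 and 146 bases, make up 51.7% of the exon bases of S100a4.

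Of the widely expressed members, S100a11 (calgizzarin, ENSMUSG00000027907, 93520488 to 93526287, plus strand) was the one whose groups were apart. It measured 469, 446 and 289.9 FPKM under IgG and 754, 750.1 and 608 FPKM under anti-PD-1. Every anti-PD-1 tumor was above every IgG tumor. The mean was 402 ± 97.5 FPKM (SD, n = 3) in IgG and 704 ± 82.9 FPKM (SD, n = 3) in anti-PD-1 tumors, a log2 fold change of 0.84 (95% confidence interval 0.24 to 1.43), or 1.79-fold on the scale of FPKM + 1. With a standard error of 0.25 the difference did not pass the adjustment over all genes (limma unadjusted p = 0.0124, adjusted p = 0.347), and 3 against 3 tumors cannot give an exact permutation p under the 0.1 found. The log2 fold change ran from 0.62 to 0.96 when each tumor was left out in turn, and the adjusted p ran from 0.150 to 0.766 over the alternatives. Epcam was also higher in every anti-PD-1 tumor than in any IgG tumor. So was the summed FPKM of the 11 luminal markers, with 3330 against 3275 at the nearest. Of these 11, 1 (Epcam) lay entirely above and 1 (Krt19, log2 fold change -2.03) entirely below, against 9.3% and 8.75% of all genes. The mean was higher for 7 of the 11, and at the unadjusted thresholds 0 were higher and 2 lower. The part of epithelial content in the level of S100a11 was not tested.

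S100a10 (p11, ENSMUSG00000041959, 93555080 to 93564643, plus strand), which forms a tetramer with annexin A2, measured 126, 120.3 and 61.4 FPKM under IgG and 85.1, 61.2 and 81.6 FPKM under anti-PD-1. It was one of 2 members with a lower mean in anti-PD-1 tumors, but IgG replicate 3 was as low as the lowest of them, and the groups overlapped. Its fold change on the log2 scale was -0.37 (standard error 0.30, limma adjusted p = 0.639, exact permutation test p = 0.4). It reached -0.70 without IgG replicate 3, the tumor that made the groups overlap. Leaving out IgG replicate 1 gave -0.19, anti-PD-1 replicate 2 gave -0.22 and IgG replicate 2 gave -0.23. S100a13 (ENSMUSG00000042312, 90514435 to 90524581, plus strand), known for the non-classical export of Fgf1, measured 48.4, 66.0 and 31.9 FPKM under IgG and 43.5, 46.1 and 42.8 FPKM under anti-PD-1. The anti-PD-1 tumors lay close together inside the range of the IgG tumors. The log2 fold change of -0.07 (standard error 0.26, limma adjusted p = 0.926) turned to 0.16 without IgG replicate 2.

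S100a1 (ENSMUSG00000044080, 90511034 to 90514392, minus strand), a modulator of ryanodine receptors in muscle, was the second highest member. It measured 311, 288 and 169 FPKM under IgG and 282, 352 and 418 FPKM under anti-PD-1. IgG replicate 3 was low and anti-PD-1 replicate 3 was high, and the groups overlapped. For S100a1 the log2 fold change was 0.49 (standard error 0.29, limma adjusted p = 0.519, exact permutation test p = 0.3), and it was 0.21 without IgG replicate 3. The 7 skeletal muscle markers summed to 1.66, 138 and 5.38 FPKM in the IgG and to 75.6, 149 and 0.645 FPKM in the anti-PD-1 tumors, with 0 of 6 tested past the unadjusted thresholds. S100a1 was highest in the tumor with the lowest muscle sum. The part of muscle in the level of S100a1 was not tested. Across tumors, S100a1 was most like S100a11 (SD of the log2 difference 0.34), with S100a13 next (0.40).

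The myeloid members were then set against the other groups within each tumor, as the mean log2(FPKM + 1) of S100a8 and S100a9 minus that of the other group. Against S100a14 and S100a16 this difference was -1.67, -2.75 and -2.77 under IgG and -2.52, -0.36 and -3.29 under anti-PD-1. The mean of the myeloid members was thus lower in all 6 tumors. This holds for the mean, to which S100a16 adds most, whereas S100a8 and S100a9 each exceeded S100a14 in 3 of 6 tumors. Against S100a6 the difference was -4.10, -5.56 and -3.83 in the IgG and -5.27, -3.60 and -5.36 in the anti-PD-1 tumors. Against the widely expressed members it lay between -5.81 and -3.80, and against S100a1 between -7.07 and -5.24. The group means of these differences, anti-PD-1 minus IgG, were 0.34 against S100a14 and S100a16, -0.25 against S100a6, 0.67 against the widely expressed members and 0.32 against S100a1. On a log2(FPKM + 0.1) scale they were 0.60, 0.06, 1.00 and 0.64, so that the one against S100a6 changed sign. The groups overlapped in each of these 4 comparisons, which are descriptions without a test.

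The receptors and binding partners of S100 proteins were measured in the same tumors. Of the 26 genes listed, 23 passed the filter, and Plg, Ryr1 and Ryr2 did not. None had an adjusted p under 0.05 (limma). At the unadjusted thresholds (p under 0.05 and 1.5-fold) 0 were higher and 2 lower after anti-PD-1, against 3.9% and 4.53% of all genes tested, and the median log2 fold change of the list was 0.06. The lower ones were Tlr4 and Alcam. Tlr4, the receptor for calprotectin, had 6.13, 11.7 and 4.35 FPKM in the IgG and 2.97, 4.59 and 3.35 FPKM in the anti-PD-1 tumors (log2 fold change -0.77, standard error 0.32, limma adjusted p = 0.406). IgG replicate 2 was high, and the groups overlapped between IgG replicate 3 and anti-PD-1 replicate 2. Alcam, an adhesion molecule known to bind S100b, had 2.09, 4.56 and 1.79 FPKM in the IgG and 1.70, 1.14 and 0.816 FPKM in the anti-PD-1 tumors (log2 fold change -0.73, standard error 0.31, limma adjusted p = 0.406), without overlap.

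Other receptors did not pass the thresholds. Bsg (basigin), a receptor for S100a9, had 1242, 308 and 324 FPKM in the IgG and 854, 1324 and 1001 FPKM in the anti-PD-1 tumors (log2 fold change 1.07, standard error 0.54, limma adjusted p = 0.457). It was high in the same IgG replicate 1 and anti-PD-1 replicate 2 as S100a8, but also in the other anti-PD-1 tumors. Ager was low, between 0.765 and 1.69 FPKM, and Cd14, the co-receptor of Tlr4, lay between 45.2 and 324 FPKM, with overlapping groups. Of the intracellular partners, Anxa2, which binds S100a10, had 85.7, 131 and 54.3 FPKM in the IgG and 98.8, 66.7 and 63.8 FPKM in the anti-PD-1 tumors (log2 fold change -0.17). As for S100a10, IgG replicate 3 was lowest or close to it. Anxa1, a partner of S100a11, had a log2 fold change of -0.43 (standard error 0.49, limma adjusted p = 0.750), with overlapping groups. Its range was -0.98 to 0.03 when each tumor was left out. Cacybp, the calcyclin-binding protein that S100a6 engages, had a log2 fold change of 0.21. That of Myh9, the non-muscle myosin heavy chain that S100a4 binds, was -0.05. Fgf1, whose export involves S100a13, lay at 0.430 to 0.717 FPKM in IgG and 0.193 to 5.77 FPKM in anti-PD-1 tumors, where anti-PD-1 replicate 3 alone was high.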

How the data were processed

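RNAseq of 6 NeuT/ATTAC tumors (3 IgG, 3 anti-PD-1) was used, grouped by the sample labels. The authors deposited FPKM values per gene. The submitters' processing notes and the study's methods name FastQC 0.11.9, cutadapt 3.5, Bowtie2 2.4.1, RSEM 1.3.1, DESeq2 1.36.0 and R 4.1 on mm10, and how the FPKM was computed from the counts is not given in the sources used here. Gene IDs were matched to GENCODE M21 (GRCm38), in which 54495 of 54532 were found. FPKM times exon length fell on whole reads, within 0.1, for 97.0% to 97.3% of detected values, which gave the reads per gene and the total per tumor. Whether these are the RSEM counts is not known.

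FPKM was divided by median-of-ratios factors (1.00 to 1.01), 1 was added and log2 taken, a scale that understates the change of low genes. Genes with a mean of at least 0.5 FPKM (15069) entered limma 3.58.1 (R 4.3.3, eBayes with an intensity trend, two-sided, Benjamini-Hochberg adjustment), with two-sided exact permutation tests of 3 against 3 tumors beside it. The unadjusted thresholds were a p under 0.05 together with a 1.5-fold difference or more. Intervals of read ratios are exact binomial and cover counting error only. The fit was tested on simulated data. Python 3.11.15, pandas 2.3.3 and scipy 1.17.1 were used.

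The members, marker lists (neutrophil, macrophage and monocyte, T cell, luminal, keratinocyte, fibroblast, endothelium, adipocyte, skeletal muscle, Schwann) and partner list were chosen with earlier results of these data known. Named were all S100 genes, genes of the partner list, up to 4 genes per marker list by level or change, the 3 highest genes between the members, and the 5 genes most alike to S100a8, S100a9 and S100a14 (not possible for S100a4). Further neutrophil, macrophage and keratinocyte markers were named after their values were seen. Alternatives were another pseudocount (0.1), other filters (none, or a mean of 2 FPKM), eBayes without the trend, unscaled FPKM, quantile normalization, a replicate block, limma's voom on recovered reads, and leaving out each tumor. Replicate numbers did not pair the tumors.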

Additional observations from a re-analysis of the deposited data

How the results depend on the processing

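No member passed an adjusted p of 0.05 under any of the 14 alternatives (limma). Of 140 recomputed log2 fold changes of the members and S100b, 137 kept their direction and side of the threshold. The exceptions were S100a13, which was at 0.16 without IgG replicate 2 (range -0.34 to 0.16 over the tumors left out), and S100b, which was at 0.12 without IgG replicate 3 and turned to 0.26 without anti-PD-1 replicate 2 (range -0.32 to 0.26). The number of members past the unadjusted thresholds, 1 in the comparison of all tumors, ranged from 1 to 2 when each tumor was left out. It was 2 without IgG replicate 2 (S100a6 and S100a11), without IgG replicate 3 (S100a10 and S100a11) and when anti-PD-1 replicate 2 was omitted (S100a11 and S100a14). When each tumor was left out, the median log2 fold change of the members ranged from 0.21 (without IgG replicate 3) to 0.78, and under the other alternatives it reached up to 0.79 (voom). Over all genes, adjusted calls were 0, against 1 with voom and 0 to 12 when each tumor was left out (12 without IgG replicate 1). At the unadjusted thresholds these gave 369 to 1000 higher and 388 to 1242 lower genes, against 587 and 683, and the cause was not tested. With the replicate block there were 663 higher and 671 lower genes and 1 member past the thresholds. Same-numbered tumors did not deviate together (correlations -0.16, 0.01 and 0.19), so the block says nothing of pairing. For S100a8, S100a9 and S100a14 the depth, at 7 to 355 reads per tumor, limits the precision of single values.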

Other observations

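Outside the 10 members, 8 other S100 genes had a value, of which S100a5, S100a7l2 and S100z were at 0 in all tumors. S100b, a glial and Schwann cell member of the family, was the only one of them at a level like that of the members, with 34.5, 26.1 and 47.1 FPKM under IgG (replicates 1, 2 and 3) and 38.2, 19.8 and 45.6 FPKM under anti-PD-1. The log2 fold change of S100b was -0.09 (standard error 0.34, limma adjusted p = 0.934), with overlapping groups. Sox10, which is expressed in Schwann cells and also in mammary epithelium, lay between 193 and 302 FPKM, and both genes were highest in IgG replicate 3, the tumor that was low in the members. S100g, a calcium-transport calbindin, lay between 0 and 1.06 FPKM, and S100a2, S100a3 and S100a7a did not exceed 0.262, 0.248 and 0.33 FPKM.

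Of the cell lists not yet described, the 9 T cell markers summed to 2.01 to 6.85 FPKM, with 1 tested (Lck). The 6 endothelial markers summed to 10.1 to 20.8 FPKM and the 6 adipocyte markers to 3.38 to 9.34 FPKM, with 0 genes past the unadjusted thresholds in each of these 3 lists. The 4 Schwann and nerve markers, mostly Sox10, summed to 199.6 to 309.6 FPKM, with 0 past these thresholds.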
